A study of Mus musculus with 2 samples.

Results

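The eukaryotic translation initiation factors (eIFs) and elongation factors (eEFs) were described in pancreatic lymph nodes of non-obese diabetic (NOD) mice, an inbred strain in which T cells destroy the insulin-producing cells of the pancreas. The members are the 61 genes whose name on the array starts with Eif or Eef and a digit, with 140 of its 41174 gene probes. Of these, 38 genes with 52 probes are in the deposited value table of 5072 gene probes and are called measured below. Each of 2 arrays held, in its Cy5 channel, RNA of 1 hyperglycemic female NOD mouse aged 16 weeks, with blood glucose above 500 mg/dl. The Cy3 channel of both arrays held 1 pool of RNA from 2 euglycemic female NOD mice of the same age, with blood glucose below 200 mg/dl. All mice were of the diabetes-prone NOD strain, so no non-diabetic strain was measured, and the pool counts as 1 control sample whose own spread is unknown.

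Initiation factors bring the initiator tRNA and the small ribosomal subunit to a messenger RNA and find its start codon, and elongation factors then move the ribosome along codon by codon. eIF2 carries the initiator tRNA and is recharged by eIF2B, eIF3 is the large scaffold on the small subunit, the eIF4 group binds and unwinds the capped 5′ end, and eIF5 and eIF5B complete start-codon recognition and subunit joining. Lymphocytes raise the output of this machinery when they are activated, and phosphorylation of eIF2 lowers initiation under stress.

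Levels are given as deposited log2 ratios, hyperglycemic mouse over euglycemic pool, for mouse 1 and then mouse 2, with the mean and SD of the 2 mice (n = 2). A probe was called when its adjusted p in limma, fitted over all 5072 gene probes against a ratio of 0, was under 0.05. Of the 52 measured factor probes, 11 were called higher in the hyperglycemic mice, 12 were called lower and 29 were not called. Those are 21.2% higher and 23.1% lower, against 25.1% higher and 18.4% lower among all gene probes, so the factors as a set were not richer in higher calls than the table. Their median log2 ratio was -0.19, against 0.06 for all gene probes. The sign was the same on both arrays for 48 of the 52, and for 4161 of all 5072 gene probes. Both arrays share 1 pool and 1 dye orientation, so the signs of the 2 arrays are not independent. When dim probes were added to the same ratios, limma called 0 of all 8814 gene probes, and so 0 factor probes. At an unadjusted p under 0.05 in limma there were then 9 higher and 16 lower factor probes, and 3396 of all gene probes. A fit to the scanner signals, described below, called 4 factor probes higher and 0 lower, against 4.74% and 0.488% of all gene probes. By gene, 5 genes had only higher calls (Eif2b2, Eif2s3x, Eif3e, Eif5 and Eif5b), 8 had only lower calls (Ago2, Eef1a1, Eef1g, Eif1ax, Eif3i, Eif4a1, Eif4ebp2 and Eif4g3), 3 had probes called in both directions (Eif3c, Eif3j1 and Eif4g2) and 22 had none. In whole lymph nodes, fewer cells of a type and less RNA per cell cannot be told apart.

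**Figure D1:**
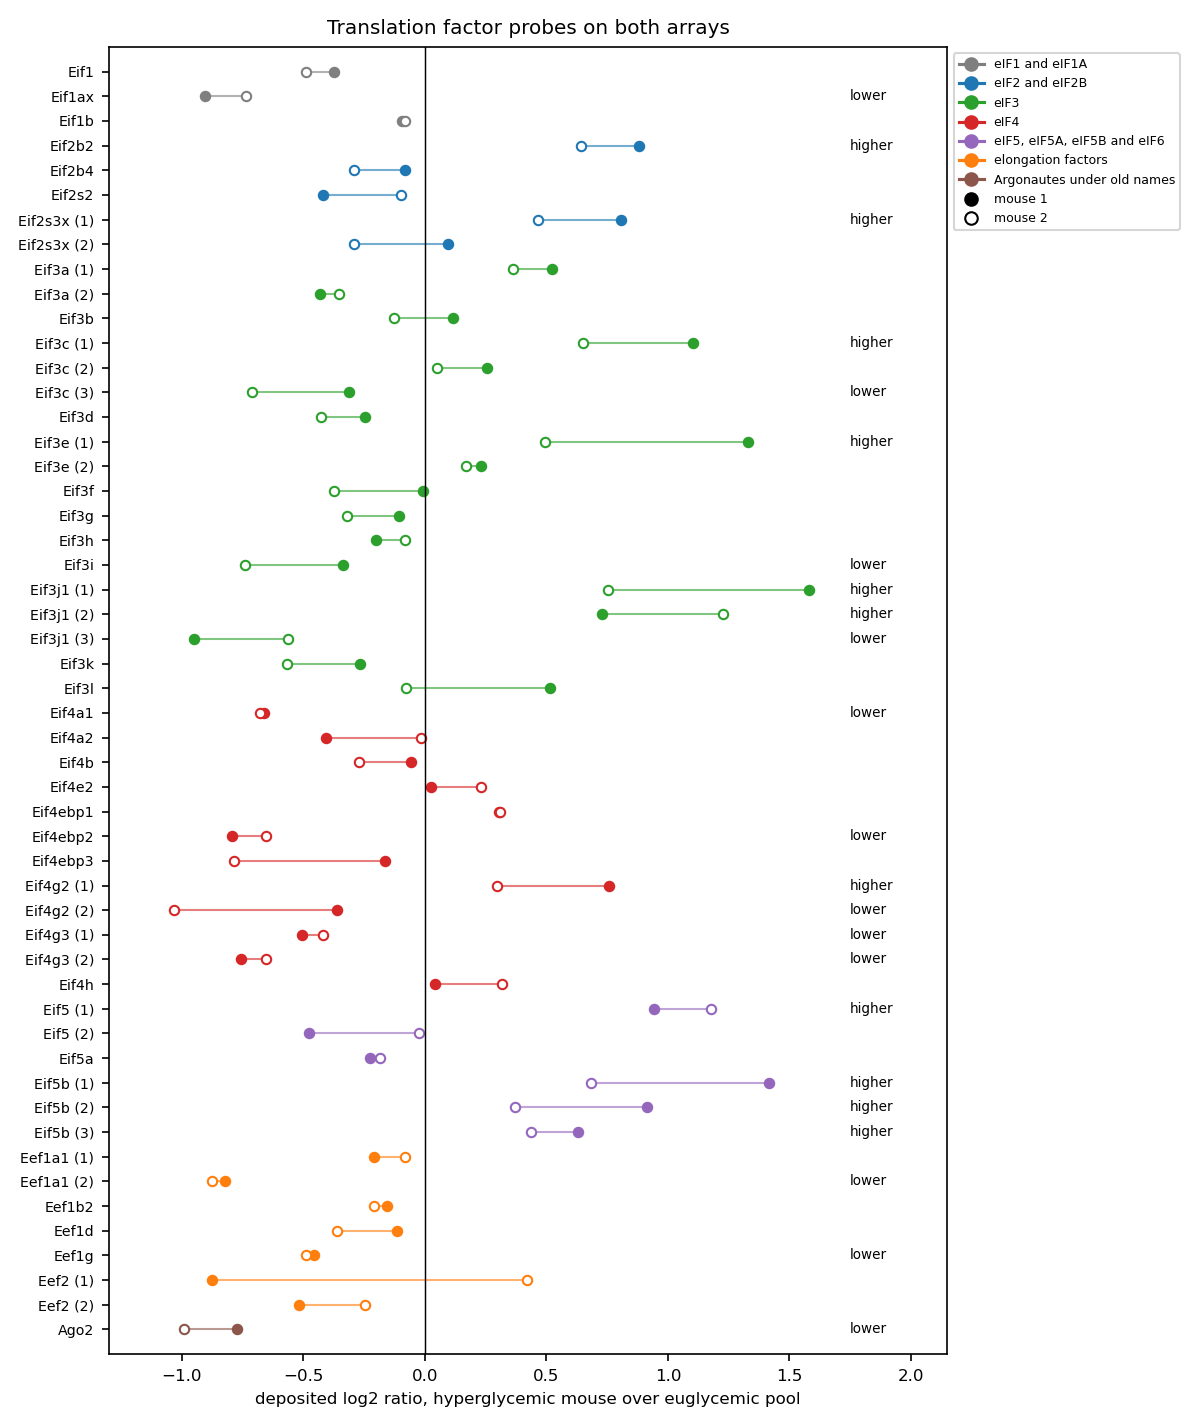
Deposited log2 ratio, hyperglycemic mouse over euglycemic pool, of the 52 measured factor probes, one row a probe, with mouse 1 as a filled and mouse 2 as an open circle joined by a line; numbers in brackets separate probes of 1 gene, and calls of the limma fit stand at the right. The late initiation factors had 4 of 6 probes called higher and 0 lower, the eIF4 group 1 of 12 higher and 5 lower, and the elongation factors 0 of 7 higher and 2 lower. Among all gene probes 25.1% were called higher and 18.4% lower. Both circles lie on 1 side for 48 of 52 probes, and the sign was the same on both arrays for 4161 of all 5072 gene probes.

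The arrays differed in brightness between the channels. The median Cy5 signal of gene spots was 37.7 and 38.2 over a background of 35, against 234 and 81.2 in Cy3 over 31 and 31.5. Of all gene spots, 14.5% and 16.4% were well above background in Cy5, against 21.7% and 63.0% in Cy3. Each measured probe exceeded background clearly in each channel of each array, so a factor that was dim in the hyperglycemic mice could not enter the table. Markers of some other cells moved between the groups as well. All 5 measured T cell genes of 9 listed were called lower (median log2 ratio -1.58). Of 14 measured exocrine pancreas genes, 8 were called higher and 2 lower (median 0.61), and all 3 measured red cell genes were called higher (median 1.17). Other lists were mixed or had few calls: B cell 1 higher and 2 lower of 5, plasma cell 1 and 2 of 3, and macrophage 2 and 1 of 6. Fibroblastic stroma had 1 higher and 2 lower of 5, and adipocyte 0 and 1 of 3. Among all genes, by the brightest probe of each, 25.4% were called higher and 18.2% lower. The summed T cell signals were 8.15 and 8.40 on the log2 scale in Cy5 and 14.98 and 14.17 in Cy3, and those of the exocrine genes were 15.96 and 16.50 in Cy5 and 21.05 and 20.21 in Cy3. In the fit to the scanner signals described below, the exocrine genes had 13 higher and 0 lower calls in limma (median 4.73). The red cell genes had 2 higher and 0 lower (median 3.26), and the T cell genes 0 higher and 1 lower (median -0.53). Among all genes, by the brightest probe of each, that fit called 8.47% higher and 0.795% lower. The size of these shifts therefore differed with the processing. The sign also turned for the 2 exocrine genes called lower with the deposited ratios. Cela1 had a mean of -0.73 there and 3.28 in the scanner-signal fit, and Amy2a5 had -2.15 and 1.44. The part of these markers in the factor ratios was not tested.

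The small factors eIF1 and eIF1A keep the scanning complex open until it meets the start codon. They were negative on all 3 measured probes. Of these, 1 (33.3%) was called lower, against 18.4% of all gene probes. Eif1ax, named Eif1ay on the array and matched through its accession, had log2 ratios of -0.90 and -0.74 (mean -0.82 ± 0.12, adjusted p = 0.00608 in limma). Both mice lay well below the pool. Eif1 had -0.38 and -0.49 and missed the threshold (adjusted p = 0.0558 in limma), and its close relative Eif1b had -0.09 and -0.08.

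For eIF2 and its exchange factor eIF2B, 2 of 5 measured probes were called higher and none lower (median -0.10). Those are 40% and 0%, against 25.1% and 18.4% of all gene probes. Eif2b2, the beta subunit of eIF2B, had log2 ratios of 0.88 and 0.64, which is a 1.70-fold mean difference (adjusted p = 0.0086 in limma). Its raw signals were 126 and 138 in Cy5 and 5860 and 3295 in Cy3, which shows how unlike the 2 dyes were before normalization. Eif2b4, the delta subunit, had -0.08 and -0.29 and was not called.

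The gamma subunit gene Eif2s3x, which binds the initiator tRNA together with GTP, gave a split answer. Its upstream probe had 0.81 and 0.47 (mean 0.64, adjusted p = 0.0191 in limma) and was called higher. Its downstream probe had 0.09 and -0.29 and was not called. The called probe lay at the 0.8 percentile of brightness in the table, and a further loess correction on intensity took its mean to 0.06 (adjusted p = 0.797 in limma). Eif2s2, the beta subunit, had -0.42 and -0.10 and was not called, and the alpha subunit Eif2s1, the target of the eIF2 kinases, had no measured probe.

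The scaffold eIF3 was the best covered complex, with 18 measured probes for 12 of its subunits. Of these probes 4 were called higher, 3 were called lower and 11 were not called (median -0.07). Those are 22.2% higher and 16.7% lower, near the 25.1% and 18.4% of all gene probes. Eif3e, a subunit of the structural core, had 1.33 and 0.49 at its upstream probe (mean 0.91 ± 0.59, adjusted p = 0.014 in limma) and 0.23 and 0.17 at its downstream probe, which was not called. Both mice were above the pool at both probes. Eif3i, which forms a peripheral module with Eif3b and Eif3g, had -0.34 and -0.74 (mean -0.54 ± 0.28, adjusted p = 0.0379 in limma).

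No other single-probe eIF3 subunit was called. Eif3b, which holds the Eif3i module, had 0.11 and -0.13, and Eif3g of the same module had -0.11 and -0.32. Eif3f had -0.01 and -0.37, and Eif3h had -0.20 and -0.08. Among the subunits with a mean farther from 0 that still missed the threshold, Eif3d had -0.25 and -0.43, Eif3k had -0.27 and -0.57, and Eif3l had 0.52 and -0.08. The largest subunit Eif3a had 0.52 and 0.36 at 1 probe (adjusted p = 0.0533 in limma) and -0.43 and -0.35 at the other (adjusted p = 0.0749 in limma). Eif3m, which the array lists under Ga17 and which is therefore not a member, had -0.03 and 0.58 and was not called.

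Eif3c and the eIF3j gene held calls in both directions. Eif3c, a core subunit that contacts eIF1 and eIF5, had 1.10 and 0.65 at its most upstream probe (mean 0.88, adjusted p = 0.00712 in limma), called higher. Another probe, further downstream on the genome, had -0.31 and -0.71 (mean -0.51, adjusted p = 0.0441 in limma) and was called lower. The probe nearest the 3′ end had 0.25 and 0.05.

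The loosely bound subunit eIF3j was covered by 3 probes that the array names Eif3s1. One had 1.58 and 0.75 (mean 1.17, adjusted p = 0.00556 in limma) and another had 0.73 and 1.22 (mean 0.98, adjusted p = 0.00522 in limma), both called higher. The probe between them had -0.95 and -0.56 (mean -0.76, adjusted p = 0.0108 in limma), called lower. Their accession leads to Eif3j1, which RefSeq places on chromosome 2, whereas the array places the probes on chromosome 18, where RefSeq has the near-identical copy Eif3j2. Which copy gave these signals was not tested.

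With the deposited ratios, the cap-binding and unwinding eIF4 group had 1 of 12 measured probes called higher and 5 called lower (median -0.34). Those are 8.33% and 41.7%, against 25.1% and 18.4% of all gene probes. Taking the brightest probe of each gene, 1 of 10 was called higher and 3 lower, against 25.4% and 18.2% of all genes. The median was then -0.19, as it was for all factors. In the scanner-signal fit described below, 0 of 20 eIF4 probes were called in limma (median -0.10). That fit called only 4.74% of all gene probes higher and 0.488% lower. Eif4a1, the main RNA helicase of the cap complex, had -0.66 and -0.68, a 1.59-fold lower mean in the hyperglycemic mice (adjusted p = 0.0118 in limma). Its paralog Eif4a2 had -0.41 and -0.01 and was not called. The helicase partners Eif4b, with -0.06 and -0.27, and Eif4h, with 0.04 and 0.32, were not called either.

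Among the proteins around eIF4E, the cap-binding protein, Eif4ebp2 was called lower at -0.79 and -0.65 (mean -0.72 ± 0.10, adjusted p = 0.00936 in limma). The eIF4E-binding proteins block assembly of the cap complex until mTOR phosphorylates them. The family did not move together: Eif4ebp1 had 0.30 and 0.31 and Eif4ebp3 had -0.16 and -0.79, neither called. The cap-binding relative Eif4e2 had 0.02 and 0.23, and Eif4e itself had no measured probe.

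All 4 measured probes of the scaffold family eIF4G were called, 1 higher and 3 lower. Among all gene probes 25.1% were called higher and 18.4% lower. Eif4g3 was lower at both of its probes, with -0.76 and -0.65 at 1 (mean -0.70 ± 0.07, adjusted p = 0.00999 in limma) and -0.51 and -0.42 at the other (mean -0.46 ± 0.06, adjusted p = 0.0445 in limma). These 4 values lay in a narrow band below the pool. Eif4g2, also known as DAP5, which lacks the eIF4E-binding part and serves cap-independent initiation, had -0.36 and -1.03 at its upstream probe (mean -0.70, adjusted p = 0.0261 in limma). Its downstream probe, 1471 bases away on the genome, had 0.76 and 0.30 (mean 0.53, adjusted p = 0.0445 in limma), so the 2 probes of this gene were called in opposite directions.

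The late initiation factors had 4 of 6 measured probes called higher and none lower with the deposited ratios (median 0.59). Those are 66.7% and 0%, against 25.1% and 18.4% of all gene probes, and 3 of the 4 calls were probes of Eif5b. In the scanner-signal fit described below, 0 of 8 probes of this group were called in limma, against 4.74% higher and 0.488% lower among all gene probes. Eif5b, the GTPase that joins the large ribosomal subunit, was higher at all 3 of its measured probes on chromosome 1 (build mm8). The probe at 37977687 to 37978617 had 1.42 and 0.68 (mean 1.05 ± 0.52, adjusted p = 0.0066 in limma). The probe at 37963666 to 37963725 had 0.92 and 0.37 (mean 0.64 ± 0.39, adjusted p = 0.0265 in limma). The neighbouring probe at 37963812 to 37963871 had 0.63 and 0.44 (mean 0.53 ± 0.14, adjusted p = 0.0293 in limma). Each of the 6 values was above the pool, and mouse 1 was the higher mouse at each probe. After a further loess correction on intensity, the dimmest of these probes had a mean of 0.41 and lost its call (adjusted p = 0.0758 in limma).

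Eif5, the activator of GTP hydrolysis by eIF2, had the lowest adjusted p among the factors. Its upstream probe on chromosome 12 (111987972 to 111988031, build mm8) had 0.94 and 1.18, a 2.08-fold higher mean in the hyperglycemic mice (1.06 ± 0.17, adjusted p = 0.00269 in limma). Its downstream probe, 5718 bases further along the genome, had -0.48 and -0.03 and was not called. Eif5a, which carries the modified amino acid hypusine and helps both elongation and termination, had -0.22 and -0.18 and was not called, while Dohh, the hydroxylase that completes hypusine, was called higher at 0.34 and 0.72 (mean 0.53, adjusted p = 0.0383 in limma).

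With the deposited ratios, all 7 measured elongation factor probes, for 5 genes, had a mean below 0 (median -0.24). Of these, 2 were called lower and none higher. Those are 28.6% and 0%, against 18.4% lower and 25.1% higher among all gene probes. Eef1a1, which delivers aminoacyl-tRNAs to the ribosome, had -0.82 and -0.88 at 1 probe, a 1.80-fold lower mean in the hyperglycemic mice (adjusted p = 0.00499 in limma). Its other probe had -0.21 and -0.08 and was not called. Eef1g, a subunit of the complex that recharges eEF1A, had -0.46 and -0.49 (mean -0.47 ± 0.02, adjusted p = 0.0408 in limma).

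The exchange subunits Eef1b2, with -0.16 and -0.21, and Eef1d, with -0.12 and -0.36, lay slightly below the pool and were not called. Eef2, the translocase that moves the ribosome by a codon, had -0.52 and -0.25 at 1 probe (adjusted p = 0.0911 in limma). At its other probe the mice disagreed, with -0.88 and 0.42. The elongation factor calls depended on the processing, as given below.

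Messenger RNAs of elongation factors and of several initiation factors are known to begin with a C followed by a run of pyrimidines, the terminal oligopyrimidine (TOP) tract through which mTOR and Larp1 control their translation. RefSeq starts (GRCm38.p6) were found for 29 of the 38 measured genes. A C followed by at least 4 C or T letters, on the gene's strand, began at the annotated start in 2 of these 29 genes (6.9%) and in 3.01% of 27025 genes. It lay anywhere within 20 bases of the start in 10 of the 29 (34.5%) and in 49.9% of all genes. The windows are shown for the elongation factors with an entry, because all their probes had negative means, and for Eif3f and Eif2s3x, where the run covers the start. Each has 20 bases on either side of the start, with the longest such run in capitals.
Eef1a1: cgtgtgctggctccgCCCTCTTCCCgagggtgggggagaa
Eef1b2: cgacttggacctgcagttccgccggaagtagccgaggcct
Eef2: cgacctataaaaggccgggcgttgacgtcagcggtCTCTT
Eif3f: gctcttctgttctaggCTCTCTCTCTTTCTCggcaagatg
Eif2s3x: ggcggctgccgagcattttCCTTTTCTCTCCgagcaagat
They lie at chr9:78481705-78481744 on the minus strand (Eef1a1), chr1:63176811-63176850 on the plus strand (Eef1b2), chr10:81176611-81176650 on the plus strand (Eef2), chr7:108934395-108934434 on the plus strand (Eif3f) and chrX:94212632-94212671 on the minus strand (Eif2s3x). Taking the brightest probe of each gene, the 10 genes with a run in the window had a median log2 ratio of -0.12 with 1 called higher and 0 called lower. The 19 without one had a median of -0.21 with 2 called higher and 5 called lower. Among all genes, taken the same way, 25.4% were called higher and 18.2% lower. Whether a run goes with the calls was not tested. A run is a description of these letters and not evidence of a TOP mRNA.

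Probes of the same factor gene often disagreed. Of 11 factor genes with several measured probes, 6 had means on both sides of 0 (54.5%), against 34.1% of 581 genes in the whole table. Calls in both directions occurred in 3 of the 11 (27.3%: Eif3c, Eif3j1 and Eif4g2), against 3.61% of the 581. The median range between a gene's probes was 0.74 for the factors, 3 of which had 3 probes, and 0.41 for all genes. The most upstream probe was the higher one in 7 of the 11 factor genes (63.6%) and in 47.6% of 571 genes with placed probes. The difference between the most upstream and most downstream probe was 1.31 for Eif5 (1.42 in mouse 1 and 1.20 in mouse 2) and -1.22 for Eif4g2 (-1.12 and -1.33), so it ran in opposite directions in these genes and was repeated in both mice. Which transcripts each probe reads was not tested.

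**Figure D2:**
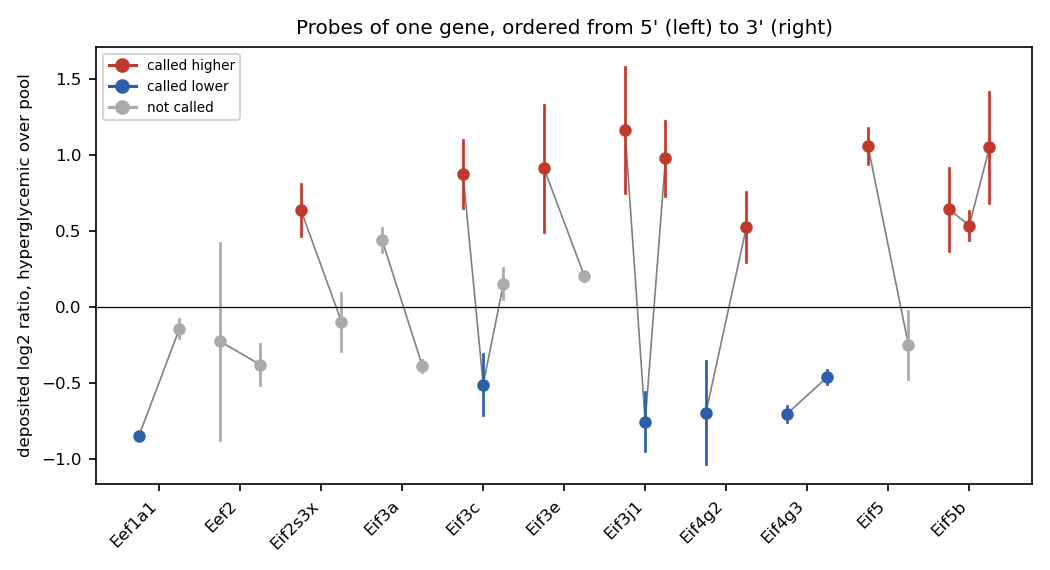
Deposited log2 ratios, hyperglycemic mice over euglycemic pool, of the 11 factor genes with several measured probes, ordered from the 5′ (left) to the 3′ probe (right) of each gene on the genome; points are means, vertical lines join the 2 mice, and colours give the limma call. Eif5b is higher at 3 of 3 probes and Eif4g3 lower at 2 of 2, while Eif3c, Eif3j1 and Eif4g2 hold both a higher and a lower call.

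The same arrays were also read from the scanner's spot signals, with normexp background correction (offset 50) and loess within each array, over 8814 gene probes that included 71 factor probes. In limma, 4 factor probes were called higher and 0 lower, or 5.63% and 0%, against 4.74% and 0.488% of all gene probes. At an unadjusted p under 0.05 there were 13 higher and 6 lower. Eif3c at its most upstream probe was the single probe called higher both here (0.77 and 0.50, adjusted p = 0.0432) and with the deposited ratios. Of the other 22 probes called with the deposited ratios, none was called here.

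The remaining 3 calls of the scanner-signal fit were probes that the deposited ratios place just below 0. Eef1a1 had 2.13 and 1.25 at its brighter probe (mean 1.69, adjusted p = 0.0212 in limma), against -0.21 and -0.08 in the deposited table. Eef1b2 had 2.05 and 0.97 (mean 1.51, adjusted p = 0.0429 in limma), against -0.16 and -0.21. Eif3h had 0.79 and 0.52 (mean 0.66, adjusted p = 0.0407 in limma), against -0.20 and -0.08. Eef1g and the other Eef1a1 probe, both called lower with the deposited ratios, had scanner-signal means of 0.86 and 0.28 and were not called. The direction of the bright elongation factors therefore differed between the processings.

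**Figure D3:**
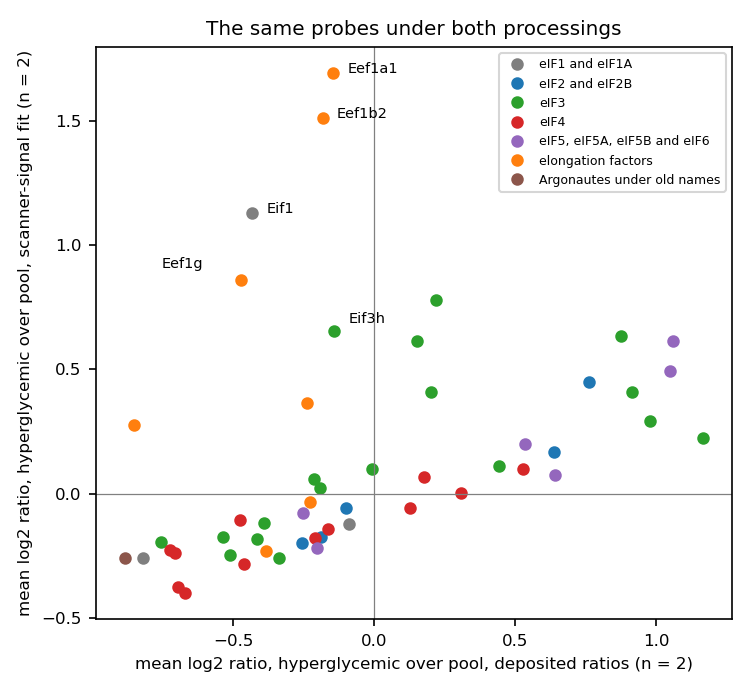
Mean log2 ratio, hyperglycemic mice over euglycemic pool (n = 2), of the 52 measured factor probes from the deposited ratios (horizontal) and from the scanner-signal fit (vertical), coloured by factor group. Eef1a1 (-0.14 and 1.69), Eef1b2 (-0.18 and 1.51), Eif1 (-0.43 and 1.13) and Eef1g (-0.47 and 0.86) lie in the upper left, where the 2 processings give opposite signs.

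By brightness, 25 of the 52 measured factor probes lay in the brightest part of the table, when it was cut by brightness into 3 equal parts, 20 in the middle part and 7 in the dimmest. In the brightest part the factors had a median of -0.18 with the deposited ratios, against 0.02 for all its gene probes, and of 0.41 in the scanner-signal fit, against 0.15. In the dimmest part the factors had a median of -0.48 with the deposited ratios, against 0.17 for all its gene probes, and of -0.10 in the scanner-signal fit, against 0.01. In the middle part the medians were -0.21 for the factors and -0.02 for all probes with the deposited ratios, and -0.12 and -0.07 in the scanner-signal fit. The calls with the deposited ratios were 3 higher and 3 lower in the dimmest part, 3 and 6 in the middle and 5 and 3 in the brightest. Among all gene probes, 31.1% were called higher and 12.8% lower in the dimmest part. The shares were 22.1% and 22.7% in the middle part and 22.1% and 19.6% in the brightest.

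**Figure D4:**
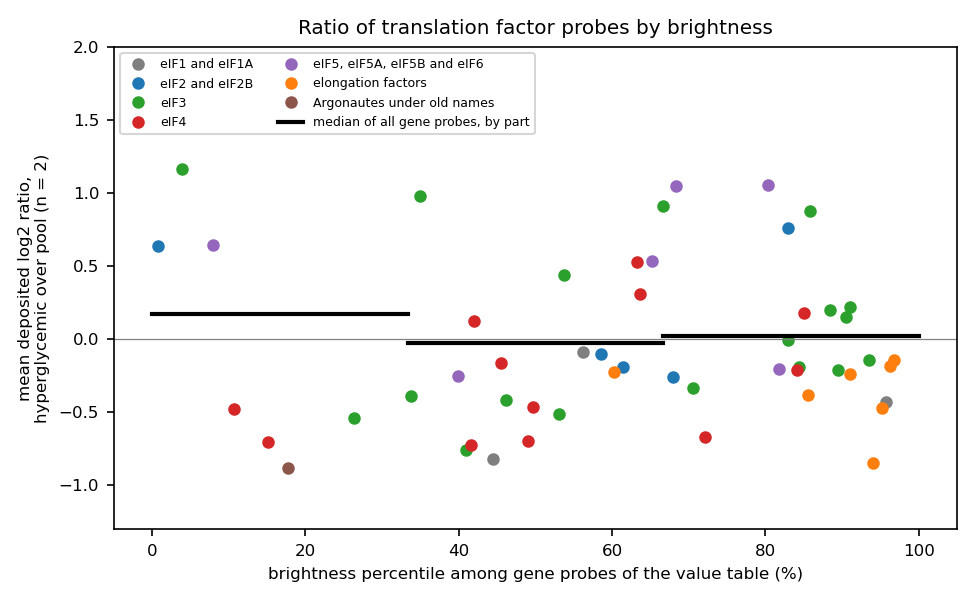
Mean deposited log2 ratio, hyperglycemic mice over euglycemic pool (n = 2), of the 52 measured factor probes against the brightness percentile of the probe in the value table, coloured by factor group; black bars are the medians of all gene probes in each of 3 equal parts. The elongation factors lie between the 60.3 and 96.8 percentiles and below 0, and the factors spread on both sides of 0 across the range.

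The other 88 factor probes were outside the value table. None was well above background in Cy5 on both arrays, 7 were on 1 array and 81 on none, while in Cy3 19 were on both arrays, 56 on 1 and 13 on none. They include 35 further probes of 23 measured genes and all 53 probes of 23 genes with no measured probe, among them Eif2s1, Eif4e, Eif4g1, the eIF2 kinases Eif2ak1, Eif2ak2, Eif2ak3 and Eif2ak4, the eEF2 kinase Eef2k and the muscle and nerve isoform Eef1a2. In the scanner-signal fit 19 of the 88 were tested and 0 were called in limma, against 4.74% higher and 0.488% lower among all gene probes. For 13 of them, among them Eif2s1, a second Eif5a probe and a second Eif4a1 probe, Cy3 passed this test on both arrays and Cy5 on neither, so the level in the hyperglycemic mice was not well above background and no fold is given. The Y-linked paralog Eif2s3y was not well above background in either channel on either array.

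The name rule also takes in the Argonaute genes, which the array lists as Eif2c1 to Eif2c4 although they carry small RNAs and are not initiation factors. Of their 16 probes 1 was measured: Ago2, the Argonaute that cuts its target, had -0.77 and -0.99 (mean -0.88 ± 0.16, adjusted p = 0.0049 in limma), the lowest mean of the 52 probes. Without it, 11 of the factor probes were called lower.

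With the deposited ratios, genes of the surrounding translation pathways were called in both directions. These lists take the brightest probe of each gene. Taken the same way, 25.4% of all genes were called higher and 18.2% lower. The lists are too small to set their counts apart from those shares. Of the pathway genes named below as called with the deposited ratios, Herpud1 alone was also called in the scanner-signal fit. Of 6 measured genes of termination, recycling and ribosome rescue, 2 were called higher and 2 lower. The rescue partners Pelo (1.02 and 1.13, adjusted p = 0.00231 in limma) and Hbs1l (0.57 and 0.89, adjusted p = 0.0113 in limma), which release stalled ribosomes, were the higher ones. Abcf1, an ATP-binding protein that associates with eIF2, with -1.09 and -0.80, and the recycling ATPase Abce1, with -0.46 and -0.55, were the lower ones (adjusted p = 0.0042 and 0.0336 in limma). The scanner-signal means were 0.53 for Pelo, 0.23 for Hbs1l, -0.33 for Abcf1 and -0.24 for Abce1.

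Of 7 measured poly(A)-binding and cap-associated genes, a list that also took in the acetyltransferase subunit Naa20 under an older name, the helicase Ddx3x was called higher (0.61 and 0.54, adjusted p = 0.021 in limma) and the TOP mRNA regulator Larp1 lower (-0.63 and -0.67, adjusted p = 0.013 in limma). Pabpc1, the main poly(A)-binding protein, had -0.06 and -0.07. Of 6 genes of mTOR and MNK control, the eIF4E kinase Mknk2 was called lower with the deposited ratios (-0.40 and -0.61, adjusted p = 0.0359 in limma) and none higher. In the scanner-signal fit 3 genes of these lists were called higher in limma, none of them called with the deposited ratios: Pabpc1 at a mean of 1.74, Tpt1 at 2.43 and, in the mTOR and MNK list, Ddit4 at 2.17. Ddx3x (0.15), Larp1 (-0.24) and Mknk2 (0.50) were not called there. Among all genes, by the brightest probe of each, that fit called 8.47% higher and 0.795% lower.

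Of 5 measured genes of the integrated stress response, the program set off by phosphorylated eIF2, 2 were called higher and none lower. Among all genes 25.4% were called higher and 18.2% lower. Herpud1, which acts in degradation of misfolded proteins of the endoplasmic reticulum, had 2.53 and 2.52 (adjusted p = 0.000313 in limma) and was also called higher in the scanner-signal fit, at a mean of 2.87. Sesn2, a sensor of leucine that restrains mTOR, had 0.67 and 0.79 (adjusted p = 0.0088 in limma). The central transcription factor Atf4 had -0.51 and -0.33 and was not called (adjusted p = 0.0626 in limma), and its target Asns had -0.18 and 0.07.

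Of 7 measured genes for aminoacyl-tRNA synthetases and their scaffold, which load tRNAs with amino acids, 3 synthetases were called lower and the scaffold protein Aimp1 was called higher (0.41 and 0.49, adjusted p = 0.049 in limma). The lower ones were Lars for leucine (-0.86 and -0.39), Qars for glutamine (-0.48 and -0.66) and Tars for threonine (-0.58 and -0.42). The only measured mitochondrial translation factor of 9 listed was the elongation factor Tufm. With the deposited ratios it was called lower at -0.67 and -1.07 (mean -0.87 ± 0.28, adjusted p = 0.0067 in limma), as were 2 of 7 cytosolic elongation factor probes. In the scanner-signal fit Tufm had a mean of -0.44 and was not called. Those 2 cytosolic probes had positive means there, 0.86 for Eef1g and 0.28 for Eef1a1.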

How the data were processed

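Per the labels, labelling started from 1 ug of total RNA and used Agilent's linear amplification kit for low RNA input. Per the file headers, the array design was Agilent 014868 with positions on build mm8, and spots were quantified by Feature Extraction 10.7.3.1. The deposited spot and background intensity values are not normalized. Per the file headers the processed signal intensity was background-subtracted and dye-normalized (linear and LOWESS), and the log ratio is a log10 of Cy5 over Cy3. The deposited table holds log2 ratios, equal to that log10 ratio times log2(10) to within 2.77e-06. Its 5072 gene probes are all those that exceeded background clearly in Cy5 and in Cy3 of each array. Cy5 always held the hyperglycemic mouse, so a dye effect of a gene cannot be told apart from the group difference.

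Fits used limma 3.58.1 in R 4.3.3 (lmFit, eBayes, Benjamini-Hochberg, two-sided), tested on simulated data. The scanner-signal fit used normexp (offset 50) and loess (span 0.3) on probes that did so in Cy5, Cy3 or both of each array. Outlier spots were left out there. With 2 mice each fit had 1 residual degree of freedom, and the number of arrays limits the precision. Symbols of all 140 probes were updated through RefSeq, 110 by accession, 16 by symbol and 14 by synonym. The members and gene lists were chosen with earlier results of these data known. Every measured member is named with its values. Of each gene list, called genes were named by size of the mean ratio, at most 4 a direction, with some not called added after their values were seen.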

Additional observations from a re-analysis of the deposited data

How the results depend on the processing

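No paired analysis was possible because both mice were compared with 1 shared pool, and a slide block could not be fitted because both arrays lay on 1 slide. With the deposited ratios, median centring (11 higher, 16 lower), a further loess (9, 13) and an intensity trend in the variance (12, 14) left the member counts within 1.5 times of 11 and 12. Among all 5072 gene probes, these settings called 1207 higher and 1114 lower, 1144 and 1090, and 1312 and 1008, in the same order. Leaving out mouse 1 or mouse 2 turned the sign of no called member. On the processed signals with dim probes added, limma called 0 members higher and 0 lower, and likewise 0 of all 8814 gene probes. At an unadjusted p under 0.05 in limma there were 9 and 16 members, and 3396 of all gene probes. The ratios of the 52 are the same there, and the pool of probes tested grew to 8814. The median of all probes was -0.18 there and 0.06 in the table. In the scanner-signal fit the counts were 4 and 0, and the sign turned for Eef1g (0.86), Eef1a1 (0.28 and 1.69), Eif3h (0.66) and Eef1b2 (1.51), each called in 1 of the fits, and for Eif1 (1.13), Eef1d (0.37), Eif3b (0.10), Eif3g (0.06), Eif3f (0.02) and Eif4e2 (-0.06), called in neither.

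For the scanner-signal fit, in limma, an offset of 10 gave 0 members higher and requiring signal in both channels gave 0 higher (8 and 12 higher at an unadjusted p under 0.05). No background correction gave 9 members higher and 7 lower, and median centring in place of loess gave 13 higher and 42 lower. These settings also moved the calls over all 8814 gene probes. An offset of 10 called 93 of them higher and 9 lower, no background correction 1179 and 918, and median centring 2826 and 3044. Requiring signal in both channels called 93 higher and 0 lower of 5071 gene probes. Median centring turned Eif5b (-0.57), Eif3a (-0.44), Eif3c (-1.50 and -0.91), Eif3f (-1.58), Eif3b (-1.40), Eef1d (-1.86), Eif3e (-1.47), Eif3l (-1.46), Eef1g (-2.06), Eef1a1 (-2.43 and -1.71), Eif1 (-2.03), Eif3h (-1.86), Eif2b2 (-0.88), Eif4h (-1.41), Eif3g (-1.90), Eef1b2 (-1.79), Eif5 (-0.54), Eif4g2 (-0.58) and Eif4ebp1 (-0.69) to the negative side, and turned the uncalled means of an Eif3e probe (-0.36), another Eif5b probe (-0.27) and Eif4ebp3 (0.01). Uncalled means also turned for Eif3f (-0.02 and -0.05), an Eef1a1 probe (-0.12 and -0.25) and Eif3g (-0.09 and -0.14), with an offset of 10 and with no background correction, and for Eif4e2 (0.00 with no correction). The cause was not tested.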
